A study of Homo sapiens with 4 samples.

Results

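Transcripts of 35 lysosomal genes were compared between A549/146b and A549/vec cells. The genes were chosen by name, as well-known lysosomal proteins, with earlier results of these data known. A probe was a member where the array's annotation gives it one of these symbols (cathepsin L, CTSL, was also sought under its older symbol CTSL1). They are 35 of 16922 genes named in the annotation and had 51 of the 24526 probes on the array, with several probes for 10 genes and 1 probe for 25. By role they are 8 cathepsins (13 probes), 19 other hydrolases (27 probes), 2 activator proteins (PSAP and GM2A), 5 membrane proteins (LAMP1, LAMP2, CD63, SCARB2 and MCOLN1) and the transcription factor TFEB.

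A549 is a human lung adenocarcinoma cell-line, widely used as a lung cancer model. A549/vec cells carry an empty pLemiR lentiviral vector. A549/146b cells carry pLemiR with an insert of human pre-miR-146b, placed behind the coding part of the red fluorescent protein TurboRFP and expressed from the constitutive CMV promoter. Both are stable populations selected with puromycin rather than single clones, and both were grown with puromycin and serum and harvested with trypsin. Each cell-line was profiled on 2 arrays, from separate cultures grown side by side on 2 occasions, so that replicate 1 of both cell-lines is occasion 1 and replicate 2 is occasion 2.

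Lysosomes are the acidic compartments in which cells digest proteins, glycans, lipids and nucleic acids. Most of their soluble enzymes are tagged with mannose-6-phosphate in the Golgi apparatus, carried to endosomes by mannose-6-phosphate receptors, and matured at low pH by cathepsins. Many of these genes share a short promoter element, the CLEAR element, to which TFEB and the related factors TFE3 and MITF bind. In cancer cells cathepsins B, D and L are also known for their release from the cell and for cutting proteins of the extracellular matrix.

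The microRNAs that the A549/146b vector encodes are shown first, since they are what the cell-lines were built to differ in. Both are given from 5′ to 3′ from RefSeq on GRCh38.p14, with the seed (bases 2 to 8), the stretch that pairs with target transcripts, in capitals.
hsa-miR-146b-5p, chr10:102436520-102436542, plus strand: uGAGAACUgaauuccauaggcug
hsa-miR-146b-3p, chr10:102436557-102436578, plus strand: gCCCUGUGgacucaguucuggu
The seeds of the 2 arms differ. No probe on the array is annotated to the microRNA gene, so that these arrays give no check of its overexpression.

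The sequence shared by many of the lysosomal genes is shown for 6 of them. They are the 4 members whose promoter holds the longer form of the element, TCACGTGA (CTSA, GAA, LAMP1 and MCOLN1), and CTSD and NEU1, whose promoters hold the core CACGTG and whose probes had an unadjusted p under 0.05. Each run goes from 5′ to 3′ on the gene's strand (RefSeq, GRCh38.p14), from 20 bases before the first CACGTG to 20 bases after the last, or to the start of transcription where that comes first. In LAMP1 the last match crosses the start, and the run ends with that match. The core is in capitals.
CTSA, chr20:45891273-45891334, plus strand: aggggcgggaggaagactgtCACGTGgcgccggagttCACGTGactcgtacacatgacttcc
CTSD, chr11:1763949-1763994, minus strand: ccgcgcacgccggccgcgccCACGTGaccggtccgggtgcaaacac
GAA, chr17:80101485-80101575, plus strand: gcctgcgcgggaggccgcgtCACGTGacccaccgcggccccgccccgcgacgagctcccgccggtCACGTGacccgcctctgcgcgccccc
NEU1, chr6:31862922-31862967, minus strand: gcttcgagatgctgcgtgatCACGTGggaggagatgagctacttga
LAMP1, chr13:113297027-113297243, plus strand: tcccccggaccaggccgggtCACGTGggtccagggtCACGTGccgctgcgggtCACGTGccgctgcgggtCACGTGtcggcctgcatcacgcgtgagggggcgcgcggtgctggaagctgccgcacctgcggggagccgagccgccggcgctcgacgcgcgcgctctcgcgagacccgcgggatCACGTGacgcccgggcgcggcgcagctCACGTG
MCOLN1, chr19:7522563-7522623, plus strand: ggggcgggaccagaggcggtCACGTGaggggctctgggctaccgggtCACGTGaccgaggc
The match nearest the start began 47 bases before it in CTSD, 25 in CTSA, 31 in GAA, 14 in MCOLN1, 1 in LAMP1 and 126 in NEU1. LAMP1 had 6 matches, 2 of them of the longer form, and the last base of the second of these falls just past the printed run. Both motifs read the same on either strand, and every TCACGTGA also counts as a CACGTG.

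Over the series, 10559 of the 24526 probes (43.1%) passed the detection limit (p under 0.01) on 1 or more arrays and were tested, and 39.2% to 42.1% of probes were detected on each array. Before normalization the mean signal was 394 to 480.1 per array, over a background of 44 to 46.1. A549/vec replicate 1 stood apart. Its log2 signals correlated with those of the other arrays at r = 0.985 to 0.991, against 0.992 to 0.995 among the other 3, and log2 differences between the cell-lines had an SD across probes of 0.289 on occasion 1 and 0.163 on occasion 2. Of the 5 epithelial markers, KRT8, KRT18, KRT19 and CDH1 were detected and EPCAM was not. The summed signal of the epithelial probes was 10553 and 6700 in A549/vec and 7672 and 6149 in A549/146b. Of markers of other cells, 2 of 10 for alveolar type II cells (ABCA3 and ETV5), 1 of 10 for leukocytes and macrophages (CD14), 1 of 8 for fibroblasts (PDGFRA) and 0 of 5 for endothelial cells were detected. The summed signal of the leukocyte and macrophage probes, cells rich in lysosomes, was 1339 to 1467 in A549/vec and 1391 to 1513 in A549/146b, and their defining markers PTPRC, CD163, CSF1R and ITGAM were not detected.

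Of the 51 lysosomal probes, 44 from 34 genes were tested, and 41 of them were detected on all 4 arrays. The probe of TFEB was detected on none, with normalized signals of 64.2 and 62.7 in A549/vec and 61.3 and 61.8 in A549/146b, so that the factor itself could not be compared. The 6 other probes detected on no array (1 each of CTSC, GLB1, IDS and ASAH1, and 2 of ARSB) belong to genes with another probe that was tested. Signals are in arbitrary units and depend on the probe, so that they are compared between arrays and not between genes. The precision of all values is limited by the small number of arrays. Limma gave nearly the same standard error, 0.14 to 0.15 on the log2 scale, for each probe, because it borrowed the spread from the whole array (1025 prior degrees of freedom beside 1 residual). A probe's own scatter between cultures thus hardly enters its p-value. In whole cultures, fewer cells with a transcript and less of it per cell cannot be told apart.

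**Figure D1:**
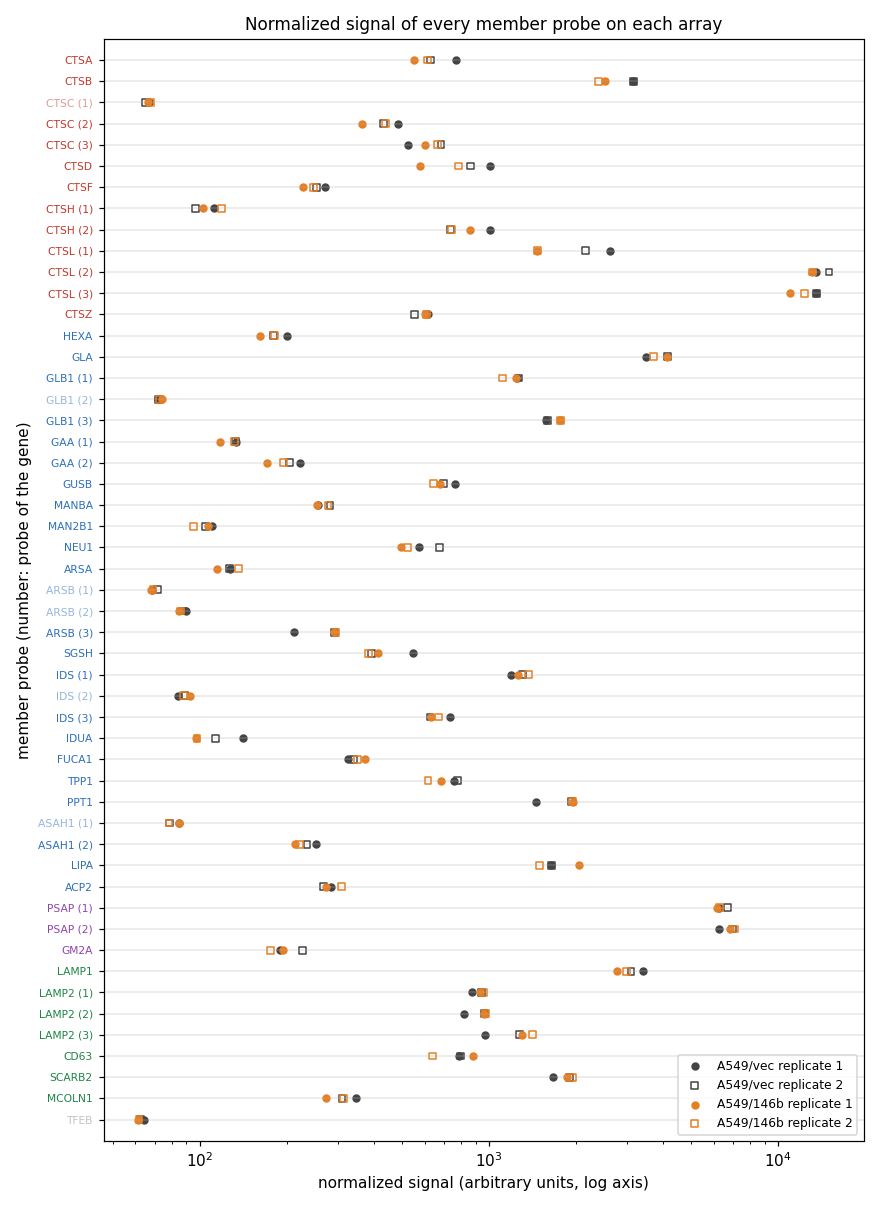
Normalized signal (x axis, arbitrary units, log scale) of each of the 51 lysosomal probes (y axis, numbered within a gene by probe ID, paler where not detected on any array) on the 4 arrays. Grey marks are A549/vec and orange marks A549/146b, circles occasion 1 and squares occasion 2, and for CTSL probe 1 the 2 orange marks lie on each other, left of both grey ones, while for most probes the colours interleave.

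Of the 44 tested probes 1, for CTSL, was called lower in A549/146b at an adjusted p under 0.05 from limma, and none was called higher. Over all tested probes 0.492% were called lower and 0.436% higher (0.928% in all), so that 1 call among 44 probes sets no pattern for these genes. At an unadjusted p under 0.05, 5 lysosomal probes were lower (those of CTSL, CTSD, CTSB, IDUA and NEU1) and 1 was higher (LAMP2), against 6.03% and 6.21% of all tested probes. Both A549/146b arrays lay below both A549/vec arrays for 16 of the 44 probes, where 22% of all tested probes did so, and above them for 4, where 22% of all did so. The median log2 fold change of the 44 was -0.09, with 28 below 0, against a median of -0.002 and 50.5% below 0 over all tested probes.

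CTSL encodes a cysteine protease that cuts within proteins and is made as a proenzyme that matures in the acid of the lysosome. On the called probe, ILMN_1694757, annotated to transcript NM_001912, the normalized signal was 2624 and 2163 in A549/vec and 1468 and 1474 in A549/146b. Both A549/146b cultures lay below both A549/vec cultures and close to each other, whereas the A549/vec cultures were apart. CTSL thus fell by 38.2% on this probe, with log2 differences of -0.84 on the first occasion and -0.55 on the second. The log2 fold change was -0.70 (95% interval -0.98 to -0.41, adjusted p = 0.00104 from limma). The study itself lists CTSL1 as lower in A549/146b from the same arrays, so that the call is not independent of that result. The call was lost, with the same direction, without A549/vec replicate 1 (-0.56, adjusted p = 0.0607), without either A549/146b array (adjusted p = 0.0791 and 0.127), under neqc (adjusted p = 0.110), under median scaling (adjusted p = 0.665) and with no filter on dim probes (adjusted p = 0.565).

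The other probes of CTSL, both annotated to transcript NM_145918, gave smaller differences. ILMN_2374036 read 13468 and 13564 in A549/vec and 10969 and 12355 in A549/146b, a log2 fold change of -0.22 (adjusted p = 0.571). ILMN_1812995 read 13466 and 14972 in A549/vec and 13090 and 13169 in A549/146b, a log2 fold change of -0.11 (adjusted p = 0.814). On each of these probes, too, both A549/146b arrays were below both A549/vec arrays. All 3 probes thus had log2 differences below 0 on both occasions, and their log2 fold changes spanned 0.58, the widest span among the 8 members with several tested probes. The remaining spans ran from 0.12 for GAA to 0.27 for CTSC, where 1 probe had -0.19 and another 0.08. In the RefSeq annotation CTSL has several transcripts and a number of pseudogenes named for it, and which of these each probe can bind was not analysed here.

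**Figure D2:**
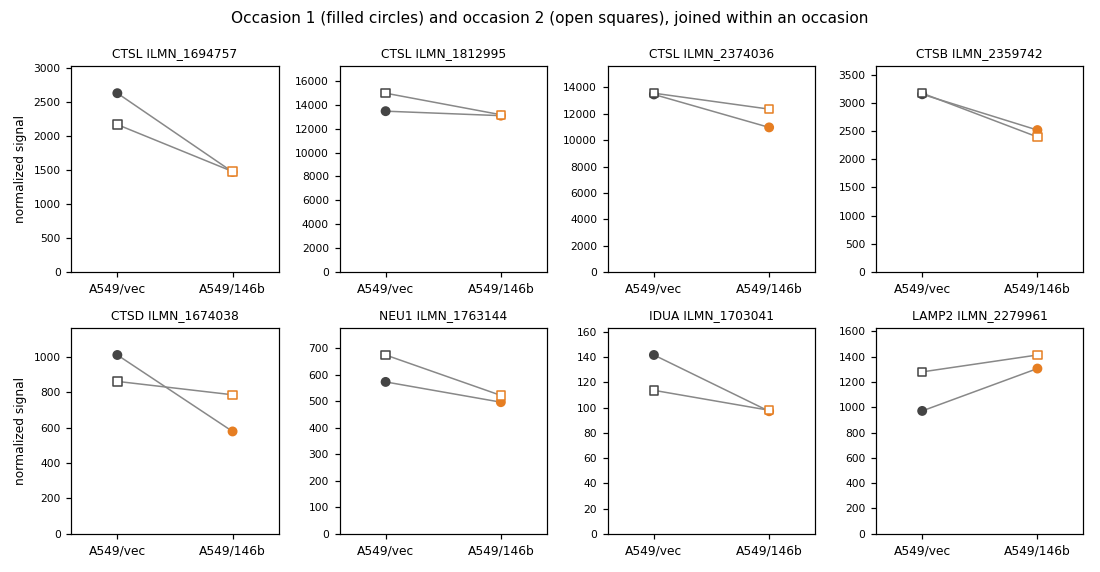
Normalized signal (y axis, arbitrary units, from 0) of the 3 CTSL probes and of the other 5 probes with an unadjusted p under 0.05, in A549/vec and A549/146b (x axis), with a line joining the cultures of an occasion. The lines slope down on both occasions for the 7 probes of CTSL, CTSB, CTSD, NEU1 and IDUA and up on both for LAMP2, and the called CTSL probe has 2624 and 2163 in A549/vec against 1468 and 1474 in A549/146b.

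Among the other cathepsins, CTSD and CTSB had the smallest p-values, and neither was called. CTSD, the main aspartic protease of the lysosome, read 1012 and 862 in A549/vec and 579 and 787 in A549/146b. Its arrays did not overlap, but the difference came mainly from occasion 1 (log2 differences of -0.80 and -0.13, log2 fold change -0.47, adjusted p = 0.0759). CTSB, a cysteine protease that can also trim dipeptides from the ends of proteins, read 3151 and 3170 in A549/vec and 2516 and 2394 in A549/146b. It was the steadier of the pair, with log2 differences of -0.32 and -0.40 and a fitted change of -22.3% that did not pass the test (adjusted p = 0.233). Without A549/146b replicate 1 the log2 fold change of CTSD was -0.25, and without A549/146b replicate 2 it was -0.69, while that of CTSB stayed between -0.40 and -0.33 over the 4 fits that each left out an array.

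For the remaining cathepsins the cell-lines overlapped, or the difference lay mostly on occasion 1. With the 3 probes of CTSL and those of CTSD and CTSB, the probes of CTSA and CTSF made up the 7 of 12 on which both A549/146b arrays were below both A549/vec arrays. Of all tested probes, 22% were so. CTSA, a serine carboxypeptidase that also protects GLB1 and NEU1 from breakdown, read 770.1 and 629 in A549/vec and 551 and 613 in A549/146b (log2 differences of -0.48 and -0.04, log2 fold change -0.26, adjusted p = 0.456). Without A549/vec replicate 1 its log2 fold change was -0.11, and without A549/vec replicate 2 it was -0.41. CTSF, a cysteine protease, had log2 differences of -0.25 and -0.03. CTSC, the dipeptidyl peptidase that activates serine proteases of immune granules, read 484 and 433 in A549/vec and 365 and 440.1 in A549/146b on ILMN_1792885, and 526, 683, 603 and 666 in the same order on ILMN_2242463. Its probes did not have the same sign on occasion 1 (-0.41 and 0.20). CTSH, an aminopeptidase, had log2 fold changes of -0.11 and 0.09 on its 2 probes, the latter detected on 2 of the 4 arrays. Without A549/vec replicate 1 the CTSH probe ILMN_2390853 had 0.12 and the CTSC probe ILMN_2242463 had -0.11, where the 4 arrays gave -0.11 and 0.08. CTSZ, a carboxypeptidase, had 0.05.

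Cathepsins were set against the other hydrolases on each occasion. On occasion 1 the 12 tested cathepsin probes had a median log2 difference of -0.27, with 11 below 0, and the 22 probes of other hydrolases a median of -0.10, with 15 below 0. For all tested probes the median was 0.00 and 50% were below 0. On occasion 2 the medians were -0.04 for the cathepsins (8 of 12 below 0) and -0.03 for the other hydrolases (13 of 22), against 0.00 and 49.9% for all tested probes. The gap between the classes on occasion 1 was therefore not seen at that size on occasion 2, and with 2 occasions it was not tested.

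Both occasions agreed in sign for 7 cathepsin probes, all below 0, and for 16 probes of other hydrolases, 11 below 0 and 5 above. The cathepsin CTSV, placed here with the further lysosomal enzymes and not in this class, was above 0 on both (0.07 and 0.005). Probes of CTSK, CTSO, CTSS and CTSE, also outside this class, passed detection on no array. Over all 44 lysosomal probes 20 were below 0 on both occasions and 10 above on both, where 29.1% and 29.2% of all tested probes were, and 14 changed sign. Leaving out the 3 CTSL probes, the cathepsin medians were -0.25 on occasion 1 and -0.03 on occasion 2, so that the difference between occasions did not rest on CTSL. The difference was larger in size on occasion 1 for 31 of 44 lysosomal probes (70.5%), and so it was for 69.9% of all tested probes.

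**Figure D3:**
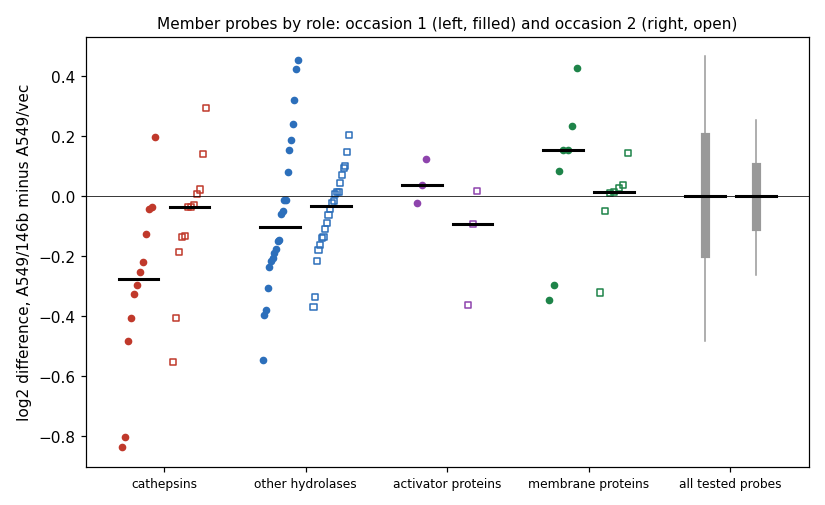
Log2 difference between A549/146b and A549/vec (y axis) of each tested probe, by role (x axis), on occasion 1 (left, filled) and occasion 2 (right, open), with black lines at the medians. The grey bars for all tested probes span the middle 50% (thick) and 90% (thin) of probes, and the cathepsin median moves from -0.27 on occasion 1 to -0.04 on occasion 2.

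The cultures of a cell-line were then compared with each other. The cathepsin probes had a median log2 difference between replicate 2 and replicate 1 of -0.16 within A549/vec and 0.13 within A549/146b, compared with 0.01 and 0.00 over all tested probes. For CTSD, CTSA and CTSF, the A549/vec culture of occasion 1 had the highest and the A549/146b culture of occasion 1 the lowest signal of the 4. The same order held for the called CTSL probe and the CTSC probe ILMN_1792885. Among tested probes of members that are not cathepsins, it held for LAMP1, MCOLN1, HEXA, GAA, ASAH1 and IDUA. The share of this order over all tested probes was not counted. A549/vec replicate 1 was the array farthest from the median of the other 3 for 20 of the 44 lysosomal probes (45.5%), and for 43.6% of all tested probes. Without that array the cathepsin median log2 fold change was -0.11, with 9 of 12 probes below 0 as with all 4 arrays, where the median was -0.17. The part of this array, or of the summed epithelial signal that was highest on it, in the cathepsin values was not tested.

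**Figure D4:**
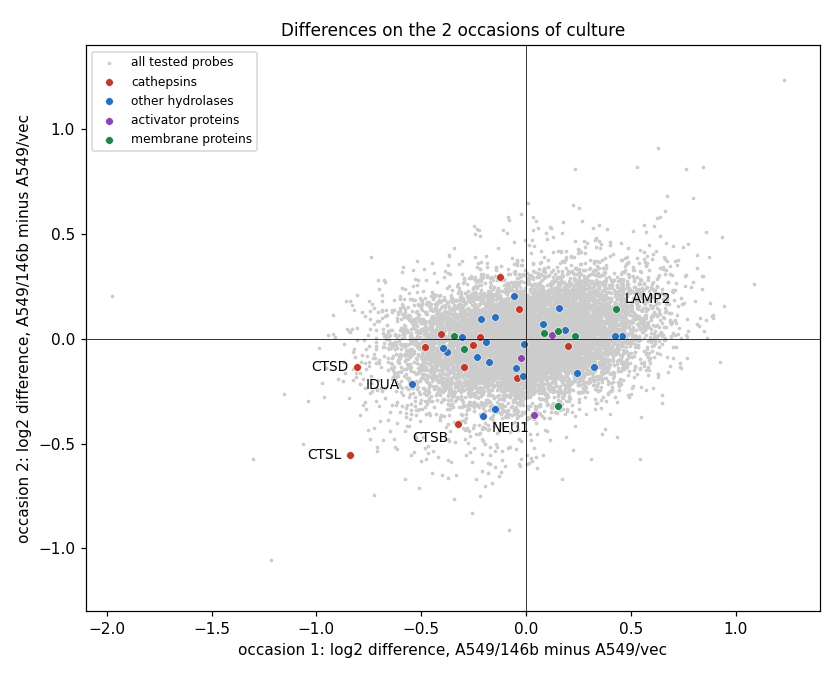
Log2 difference between A549/146b and A549/vec of each tested probe on occasion 1 (x axis) and occasion 2 (y axis), grey for all 10559 tested probes and coloured by role for the lysosomal ones. The called CTSL probe lies at -0.84 and -0.55, CTSD at -0.80 and -0.13, and most other lysosomal probes lie within the grey cloud.

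The other hydrolases cut sugars, sulfates, lipids and peptides, and no probe of the 22 tested was called (2 were lower at an unadjusted p under 0.05 from limma, where 6.03% of all tested probes were). Their median log2 fold change was -0.08, with 14 of 22 below 0. Both A549/146b arrays were below both A549/vec arrays for 8 of these 22 probes and above them for 3, where 22% of all tested probes were in each direction. With 1 probe per gene, a choice made after the values were seen, the median was -0.023.

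IDUA and NEU1 had the smallest p-values of this class. IDUA, the iduronidase that opens dermatan and heparan sulfate and is missing in Hurler syndrome, read 142 and 114 in A549/vec and 97.2 and 97.9 in A549/146b. Detection passed in the 2 A549/vec cultures alone, so that the fold between the means is given as a bound. The mean was at least 1.11-fold higher in A549/vec when A549/146b was set to the lowest signal that passed on its arrays. This bound is for the mean of the 2 occasions and not for each of them (adjusted p = 0.200 from limma). The fitted log2 fold change was -0.38 with all 4 arrays and -0.22 without A549/vec replicate 1. NEU1, the sialidase that removes sialic acid from glycoproteins, read 572 and 674 in A549/vec and 496 and 522 in A549/146b. Its log2 differences were -0.21 and -0.37 (log2 fold change -0.29, adjusted p = 0.391), and its groups did not overlap.

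Other enzymes of heparan and dermatan sulfate breakdown had values on both sides of 0. SGSH, the sulfamidase of heparan sulfate, read 544 and 394 in A549/vec and 414 and 382 in A549/146b, with overlapping groups and a log2 fold change of -0.22 that was 0.01 without A549/vec replicate 1. ARSB, the sulfatase of dermatan sulfate, read 212 and 293 in A549/vec and 290.5 and 296 in A549/146b on its 1 tested probe. The array of A549/vec replicate 1 was low, and the log2 fold change, 0.23 over the 4 arrays, was -0.0003 without it. IDS, the iduronate sulfatase, had 0.08 and -0.06 on its 2 tested probes, and GUSB, the glucuronidase used as a reference gene in many studies, had -0.14.

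Glycosidases and a sulfatase that act on glycoproteins, glycolipids and glycogen ranged from -0.22 to 0.15. GLA, the alpha-galactosidase missing in Fabry disease and among the 3 members with the brightest probes, read 3500 and 4148 in A549/vec and 4140 and 3709 in A549/146b, with overlapping groups and a log2 fold change of 0.04. The beta-galactosidase GLB1 had probes on either side of 0 (-0.10 and 0.15), and the second of these was higher on both A549/146b arrays (1757 and 1771) than on both A549/vec arrays (1578 and 1598) without passing the test (adjusted p = 0.729). GAA, the glucosidase that breaks down glycogen, had -0.10 and -0.22, and HEXA, the alpha subunit of hexosaminidase A, -0.15. MAN2B1, an alpha-mannosidase near the detection limit, read 110.1 and 105 in A549/vec, where 1 array detected it, and 107 and 95 in A549/146b, where none did. The values of MANBA, a beta-mannosidase, FUCA1, a fucosidase, and ARSA, the sulfatase of sulfatide, were -0.02, 0.12 and -0.02.

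Lipid-cleaving and peptide-cleaving hydrolases lay on both sides of 0. PPT1, a thioesterase that removes palmitate from proteins, read 1455 and 1925 in A549/vec and 1955 and 1944 in A549/146b. The single low value was that of A549/vec replicate 1, and the log2 fold change of 0.22 was 0.02 without A549/vec replicate 1. LIPA, the acid lipase of cholesteryl esters, read 1637 and 1643 in A549/vec and 2047 and 1495 in A549/146b, so that its occasions went opposite ways (0.32 and -0.14). TPP1, a serine peptidase that takes tripeptides off proteins, read 759 and 777 in A549/vec and 685 and 616 in A549/146b (log2 fold change -0.24, adjusted p = 0.506), with no overlap. ASAH1, acid ceramidase, had -0.16 on the tested probe, and ACP2, acid phosphatase, 0.07.

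Activator proteins have no enzyme activity of their own and present lipids to the hydrolases. PSAP, the precursor of the saposins, had 2 bright probes that read 6245 and 6689 in A549/vec and 6147 and 6280 in A549/146b on ILMN_1749109, and 6259, 6954, 6820 and 7038 in the same order on ILMN_2355559. These groups overlapped, and the log2 fold changes were -0.06 and 0.07. GM2A, the partner of hexosaminidase A in GM2 ganglioside breakdown, read 190 and 226 in A549/vec and 195 and 176 in A549/146b, with log2 differences of 0.04 and -0.36 (log2 fold change -0.16).

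Membrane proteins of the lysosome gave a median log2 fold change of 0.06 over 7 probes, with 4 probes above 0 on both occasions and 1 below 0 on both. LAMP2, a glycoprotein of the lysosomal membrane, read 970.5 and 1279 in A549/vec and 1305 and 1412 in A549/146b on ILMN_2279961. This probe, annotated to transcript NM_013995, had the highest log2 fold change of the lysosomal probes and did not pass the test (log2 differences of 0.43 and 0.14, log2 fold change 0.29, adjusted p = 0.400). The other LAMP2 probes, annotated to NM_002294, had 0.06 and 0.13. Without A549/vec replicate 1 the value of ILMN_2279961 was 0.09.

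LAMP1, the most used lysosomal membrane marker, read 3404 and 3098 in A549/vec and 2775 and 2994 in A549/146b, with no overlap, log2 differences of -0.29 and -0.05 and a log2 fold change of -0.17 (adjusted p = 0.683). MCOLN1, the calcium channel mucolipin-1, had log2 differences of -0.35 and 0.01. CD63, a tetraspanin also found on exosomes, read 790 and 797 in A549/vec and 879 and 638 in A549/146b, so that the A549/vec cultures lay between the 2 A549/146b cultures. SCARB2, the receptor that carries glucocerebrosidase to lysosomes, had 0.15 and 0.04 on the 2 occasions.

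The promoter sequences were then set beside these values. In the windows from 250 bases before to 50 after each start, CACGTG was found for 9 of the 27 member genes in the RefSeq table (33.3%), against 8.77% of the 27305 genes in the table, with 8 members not in it. The 9 were CTSA, CTSD, CTSF, GAA, NEU1, ARSB, LAMP1, CD63 and MCOLN1. The longer TCACGTGA was found for 4 (14.8%), against 1.18% of all genes. The genes in the table include many that were not tested here, whereas nearly all members were tested. Among genes with a tested probe, 938 had CACGTG and 6022 did not, and 181 had TCACGTGA and 6779 did not. These shares describe letters in a window and do not show that a factor binds there.

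Probes of members with a CACGTG, of which CTSA, CTSD, NEU1, LAMP1 and MCOLN1 are printed above with GAA, had a median log2 fold change of -0.17, with 9 of 10 below 0. Those of members in the table without one had -0.06, with 12 of 23 below 0, and CTSL, whose probe was called, was among them. On occasion 1 the median of the probes with the motif was -0.27 and on occasion 2 it was -0.04, the medians that the cathepsins also had, and 3 cathepsin genes (CTSA, CTSD and CTSF) are among these 9 genes. Over all tested probes of genes in the table, the median was -0.01 with the motif (52.3% of 1121 probes below 0) and 0.00 without it (49.7% of 7007). ARSB, with a log2 fold change of 0.23, was the exception among the 10 probes. No test was made of this difference, since the members were not chosen independently of earlier results.

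The rest of the lysosomal pathway was described through 6 further lists of 83 genes, of which 54 had a tested probe (68 probes). CPVL, a serine carboxypeptidase, was called lower in A549/146b and no probe was called higher, where 0.492% and 0.436% of all tested probes were. At an unadjusted p under 0.05 from limma 11 of the 68 were lower and none higher, against 6.03% and 6.21% of all tested probes. On the called probe CPVL read 193 and 240 in A549/vec and 152 and 141 in A549/146b. Its groups did not overlap, its log2 differences were -0.34 and -0.76, and its log2 fold change was -0.55 (adjusted p = 0.0250 from limma), against -0.30 on its other probe, which was not called. The median over the 68 probes was -0.07, with 46 (67.6%) below 0, against 50.5% of all tested probes. The CPVL call was lost in 8 of the 11 alternatives run, among them the fits without A549/vec replicate 2 (-0.40, adjusted p = 0.0827) and without either A549/146b array.

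Further lysosomal enzymes, CPVL among them, had the lowest median of these lists. Over 14 tested probes it was -0.23, with 9 below 0, and DPP7, a dipeptidyl peptidase, PCYOX1, which degrades prenylcysteine, and LGMN, the asparaginyl endopeptidase that processes cathepsins, had -0.38, -0.34 and -0.32 with no call. The other tested probes of DPP7 and LGMN had -0.28 and -0.18. The probes of this list above 0 were those of DNASE2 (0.12), GALNS (0.10), CTSV (0.04), GALC (0.03) and PLA2G15 (0.03). Cystatin C, CST3, a secreted inhibitor of cysteine cathepsins, had log2 differences of -0.59 and 0.02 (log2 fold change -0.28, adjusted p = 0.406, and -0.11 without A549/vec replicate 1), and its cytosolic relative CSTB had -0.11. The receptor M6PR, which carries tagged enzymes to endosomes, had log2 differences of -0.30 and -0.36 (log2 fold change -0.33, adjusted p = 0.297). NAGPA, which uncovers the mannose-6-phosphate tag, had -0.40 and -0.03 on the 2 occasions, and the other mannose-6-phosphate receptor, IGF2R, had 0.43 and -0.11.

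Subunits of the proton pump that acidifies the lysosome had a median of 0.00 over 18 probes, 9 of them below 0. ATP6V0C, its membrane ring subunit, read 1104 and 749 in A549/vec and 631 and 775 in A549/146b. Its occasions had opposite signs (-0.81 and 0.05), and its log2 fold change of -0.38 was -0.10 without A549/vec replicate 1. ATP6V1A, the subunit that binds ATP, had 0.47 and 0.08 on the 2 occasions and ATP6V0D1 had -0.30 and -0.25, and none of these was called. Among other membrane proteins the median was -0.06 over 14 probes, and TMEM55B, a protein that helps to position lysosomes in the cell, read 773 and 648 in A549/vec and 465 and 544 in A549/146b. Its groups did not overlap and it missed the threshold (log2 fold change -0.49, adjusted p = 0.0553 from limma). CLN3, mutated in a juvenile storage disease of neurons, had -0.33 and -0.21 on its 2 probes. The cystine exporter CTNS had -0.04 on a probe detected on all 4 arrays. Another CTNS probe passed detection in the A549/vec cultures alone, with 151 and 116 there and 105 and 116 in A549/146b. The same signal of 116 thus passed on A549/vec replicate 2 and not on A549/146b replicate 2. Its log2 differences were -0.53 and 0.0006, with overlapping groups (adjusted p = 0.452 from limma). The bound on the means, 1.16-fold higher in A549/vec, therefore rests on occasion 1 and does not hold on occasion 2.

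Of the relatives of TFEB and the regulators of mTORC1, the kinase complex that holds TFEB in the cytosol, 13 probes had a median of -0.05 and no call. MITF had 0.28 and 0.21 on its 2 tested probes, which read 129 and 153 against 165 and 176, and 129 and 119 against 159 and 128. FLCN, an upstream regulator, had -0.14, -0.05 and -0.11 on its 3 tested probes, each with opposite signs on the 2 occasions, and the kinase MTOR had 0.13.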

How the data were processed

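Total RNA of A549/vec and A549/146b cells (2 cultures each) was hybridised to Illumina HumanRef-8 bead arrays. The authors deposited 2 kinds of intensity values: GenomeStudio signals before normalization, and signals normalized in lumi 1.14 (R 2.11.1) by background correction, variance stabilization and robust splines. The deposited detection p-values compare each signal with negative control beads. The normalized values are linear (medians of 82.6 to 82.8 per array), and log2 was taken here. No column was left out, and there was no sequencing depth to give.

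The 10559 probes that passed a detection limit of 0.01 on any of the 4 arrays were fitted with limma 3.58.1 in R 4.3.3 on cell-line with the replicate number as a block, with Benjamini-Hochberg adjustment over all of them and a threshold of 0.05. The study's methods name a paired moderated test in limma. Its text says that both cell-lines were grown together on 2 occasions, which is where the pairing comes from. As a check, deviations from the cell-line means correlated at r = -0.05 between arrays of the same number, which gives the pairing no support from the data. Exact permutation of 2 against 2 arrays cannot go below p = 0.333 and was not used. The main fit was also run on simulated data with known folds and the same spread for every probe and array. No simulated array stood apart as A549/vec replicate 1 did, so that this check does not bear on unequal arrays. A probe detected on both arrays of 1 cell-line and neither of the other has its fold as a bound on the mean log2 signals, which need not hold on each occasion.

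Alternatives were no block, leaving out each array (without the block, so that a lone array is assumed to vary like the others), detection on all 4 arrays, no filter, neqc, quantile normalization, median scaling, and a prior with an intensity trend. Symbols came from the platform annotation (21834 probes with 1 symbol, 2692 with none). Sequences came from RefSeq tables on GRCh38.p14. The members, the other lists, the promoter motifs and the tests were chosen with earlier results of these data known. Every member is named. Values per array are given for members called, members whose probes disagreed, the 3 with the largest and the 3 with the smallest mean signal (by their brightest probe) and the members with the smallest p in each role, with a few more members whose groups or occasions differed, chosen after their values were seen.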

Additional observations from a re-analysis of the deposited data

How the results depend on the processing

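The medians of the lysosomal probes, of the cathepsins and of the other hydrolases stayed below 0 under each of the 11 alternatives listed above. Detection on all 4 arrays kept 41 of the 44 lysosomal probes, and the median of the other hydrolases was then -0.04. With 1 probe per gene, the one of the highest mean signal, an alternative chosen after seeing the data, the median of the other hydrolases was -0.023 instead of -0.08. The single lysosomal call, CTSL lower, became 0 under neqc, median scaling and no filter on dim probes, where 4, 3 and 7 lysosomal probes were lower at an unadjusted p under 0.05 from limma. It ran from 0 to 4 when 1 array was left out (2 to 4 lower at an unadjusted p under 0.05 where it was 0), and calls of higher probes from 0 to 2. The most calls came without A549/vec replicate 2 (CTSL, CTSD, IDUA and SGSH lower, ARSB and LAMP2 higher). That fit also called the most of all tested probes, in both directions, so that these calls set no pattern for the lysosomal genes. The count in the other lysosomal lists, 1 with all arrays, was 0 without the replicate block, on probes detected on all 4 arrays, and under neqc, median scaling and no filter, and 0 to 6 with 1 array left out (2 to 14 at an unadjusted p under 0.05 where those settings gave 0). Over all tested probes, 98 calls became 12 without the replicate block, 33 on probes detected on all 4 arrays, 21 under neqc, 7 under median scaling and 0 with no filter (1984 at an unadjusted p under 0.05), and 12 to 868 with 1 array left out. The cause of these changes was not tested. With 1 array left out the medians ran from -0.09 to -0.07 for all lysosomal probes, -0.25 to -0.11 for the cathepsins and -0.10 to -0.05 for the other hydrolases. Without the replicate block CTSL was still called (adjusted p = 0.0446), and the block changed no other lysosomal call of the 35 genes. Of the 44 probes, 14 changed sign under some alternative, none of them the called one. Signals near background limit IDUA, MAN2B1 and 1 probe of CTSH.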
